A study of Mus musculus with 4 samples.

Results

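Genes that cells switch on in response to fibroblast growth factors (FGFs) were followed in 4 organ primordia of the mouse embryo. The 8 genes were Etv1, Etv4, Etv5, Spry1, Spry2, Spry4, Dusp6 and Spred1. They were taken as every non-control probe whose transcript accession carries one of these symbols, which gave 11 probes for 8 of the 16995 genes named on the arrays. Etv5, Spry4 and Spred1 had 2 probes each and the other 5 genes had 1.

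The organs were lung, esophagus, stomach and intestine of ICR mice, an outbred strain with no engineered allele or treatment named in the labels, dissected at embryonic day E11.5. Each organ gave 1 array of total RNA labelled with Cy3, and all 4 arrays lay on 1 slide read in 1 scan. The labels do not say how many embryos were pooled, and the protocol text attached to all 4 samples speaks of stomach. Organ names follow the sample titles, and the stomach sample is titled "gustric".

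FGFs bind receptor tyrosine kinases and act in large part through RAS and the kinase ERK. Among the genes this pathway induces are the PEA3-type ETS transcription factors Etv1, Etv4 and Etv5 and a set of inhibitors that act back on the same pathway: the Sprouty proteins, the Spred proteins and the ERK phosphatase Dusp6. In the lung bud, FGF10 from the mesenchyme signals to the epithelium through Fgfr2 and drives branching, and Etv4, Etv5 and Sprouty genes are known readouts of that signal. FGF10 also acts in the developing stomach and intestine.

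A level below is the log2 of the background-subtracted spot signal minus the 75th percentile of that array, so a level of 0 is the 75th percentile and a difference of 1 is 2-fold. The error after ± is the spot error that the scanner software attached to 1 spot, carried to the log2 scale. With 1 array per organ there was no replicate, no test was possible and no p-value is given. The number of arrays limits the precision, and neither the spot error nor the SD over 10 copies of a probe (0.0738 to 0.114 log2 by array) covers differences of dissection, RNA or labelling. The samples were whole organs, so fewer cells of a type and less RNA per cell cannot be told apart.

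The lung array was dim. Of its 43379 spots 39% passed the well-above-background flag, where the other arrays had 67.9% to 74%, and its lowest level well above background was −2.39 against −5.75 in the esophagus, −5.78 in the stomach and −6.92 in the intestine. The summed markers of lung, stomach and intestine were highest in the organs of those names, although the intestine marker Cdx1 was above background in stomach alone. Of 4 stratified foregut markers, Sox2 (1.09 against 0.63), Trp63 (0.31 against −2.15) and Krt5 (−0.59 against −2.46) were higher in esophagus than in stomach, and Pitx1 was lower (4.71 against 6.29). The 8 heart muscle markers stood apart in the esophagus sample, at a summed level of 114 (linear scale where the 75th percentile is 1), against 8.51 in lung, 1.82 in stomach and 0.94 in intestine. All 8 were well above background in esophagus. Skeletal muscle markers summed to 4.41 in esophagus against 0.22 in stomach and 0.07 in intestine. The 4 lung markers, all above background in esophagus, summed to 4.89 there against 24.0 in lung, 0.36 in stomach and 0.21 in intestine. The part of these tissues in the esophagus values below was not tested.

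Of the 8 genes, 6 were well above background on all 4 arrays. Spry2 was not in lung, and Spry4 was not in lung or esophagus. Upstream sequences were searched for the cores that ETS factors recognise. RefSeq windows on GRCm38.p6, running from 250 bases before to 50 after a start, were found for 6 of the 8 genes as 8 windows, with 2 starts each for Etv1 and Etv5; Etv4 and Spry4 had no match. Shown here are the 250 upstream bases of Etv1, Spry1 and Dusp6, whose levels in esophagus were lower than in stomach and intestine, and of Spred1, which went the other way. Capitals mark the core AGGAAG on either strand, which is CTTCCT where it lies on the other strand.
Etv1, chr12:38779832-38780081, plus strand: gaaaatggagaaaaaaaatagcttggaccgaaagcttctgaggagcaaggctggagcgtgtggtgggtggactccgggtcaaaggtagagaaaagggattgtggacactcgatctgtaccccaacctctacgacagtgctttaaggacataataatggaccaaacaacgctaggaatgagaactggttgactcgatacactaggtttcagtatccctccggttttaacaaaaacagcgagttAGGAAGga
Dusp6, chr10:99262981-99263230, plus strand: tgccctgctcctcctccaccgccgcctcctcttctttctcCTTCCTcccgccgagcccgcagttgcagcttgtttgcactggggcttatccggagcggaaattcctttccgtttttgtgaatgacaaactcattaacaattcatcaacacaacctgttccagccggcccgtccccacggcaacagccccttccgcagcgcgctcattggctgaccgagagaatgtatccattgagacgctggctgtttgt
Spry1, chr3:37639697-37639946, plus strand: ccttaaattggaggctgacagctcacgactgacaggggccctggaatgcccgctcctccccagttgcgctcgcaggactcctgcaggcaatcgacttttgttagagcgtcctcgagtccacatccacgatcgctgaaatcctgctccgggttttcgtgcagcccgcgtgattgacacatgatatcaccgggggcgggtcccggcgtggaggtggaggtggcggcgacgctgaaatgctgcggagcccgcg
Spred1, chr2:117120821-117121070, plus strand: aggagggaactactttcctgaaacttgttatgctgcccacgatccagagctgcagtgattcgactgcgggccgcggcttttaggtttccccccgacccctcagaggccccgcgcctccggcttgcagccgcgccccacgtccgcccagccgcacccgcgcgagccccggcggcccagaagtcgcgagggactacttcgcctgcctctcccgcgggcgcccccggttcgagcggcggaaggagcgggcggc

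The Etv1 window shown held AGGAAG with its first base at −8 from the start, and a further copy that overlaps it and crosses the start. The other Etv1 window held neither core. The Dusp6 window held it on the minus strand, at −210. Neither AGGAAG nor the ETS core CCGGAA, searched on both strands, was found in the Spry1 or Spred1 windows. Over all 8 windows of these genes AGGAAG was in 3 and CCGGAA in 1 (Spry2), against 35.4% and 14.9% of the 32851 windows in the table. The remaining AGGAAG window was of Etv5. By its brighter probe Etv5, like Spred1, was higher in esophagus than in stomach and intestine. These matches describe letters in a window and show no binding, and coordinates of the array design (build mm8) were not used.

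Etv4, an activator of growth factor response genes in branching epithelia, stood at 0.05 ± 0.16 in lung, −2.14 ± 0.15 in the esophagus, −0.39 ± 0.14 in the stomach and −0.14 ± 0.14 in the intestine. Esophagus stood alone at the bottom, while lung, intestine and stomach followed each other in steps of 0.19 and 0.25, each within 2 spot errors of the difference. The esophagus level was 4.57-fold below lung and 4.01-fold below intestine.

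Etv1, known also from neurons and from the pacemaker cells of the gut wall, had levels of 1.003 ± 0.15 in lung, 0.45 ± 0.14 in the esophagus, 1.89 ± 0.14 in the stomach and 1.70 ± 0.14 in the intestine. Esophagus was again lowest, but here stomach and intestine lay above lung, by 1.84-fold and 1.62-fold. Stomach and intestine differed by 0.18, less than the error of that difference (0.20). The 4 neuronal markers, summed, were also higher in stomach (12.4) and intestine (7.75) than in esophagus (4.04) and lung (2.70). Of them Isl1 went the other way in intestine, at −0.65 against 0.355 in esophagus and 0.475 in lung. The part of neurons in the Etv1 values was not tested.

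Etv5, which acts together with Etv4 in the lung bud, did not share this order. Its brighter probe read −0.81 ± 0.20 in lung, −1.02 ± 0.15 in the esophagus, −1.51 ± 0.15 in the stomach and −2.87 ± 0.15 in the intestine. Lung and esophagus differed by 0.21, within the error of 0.25, and intestine was lowest, 3.61-fold below esophagus and 2.56-fold below stomach.

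The second Etv5 probe did not repeat the low intestine value. It was not well above background in lung and read −4.67 ± 0.24 in the esophagus, −5.12 ± 0.30 in the stomach and −4.42 ± 0.16 in the intestine. Its esophagus minus stomach difference, 0.46 ± 0.39, had the sign of the brighter probe (0.50 ± 0.21). Its esophagus minus intestine difference was −0.24 ± 0.29 against 1.85 ± 0.21 for the brighter probe, and its stomach minus intestine difference was −0.70 ± 0.34 against 1.36 ± 0.21. Both probes carry the same accession, and the order of Etv5 in intestine therefore rests on 1 probe.

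**Figure D1:**
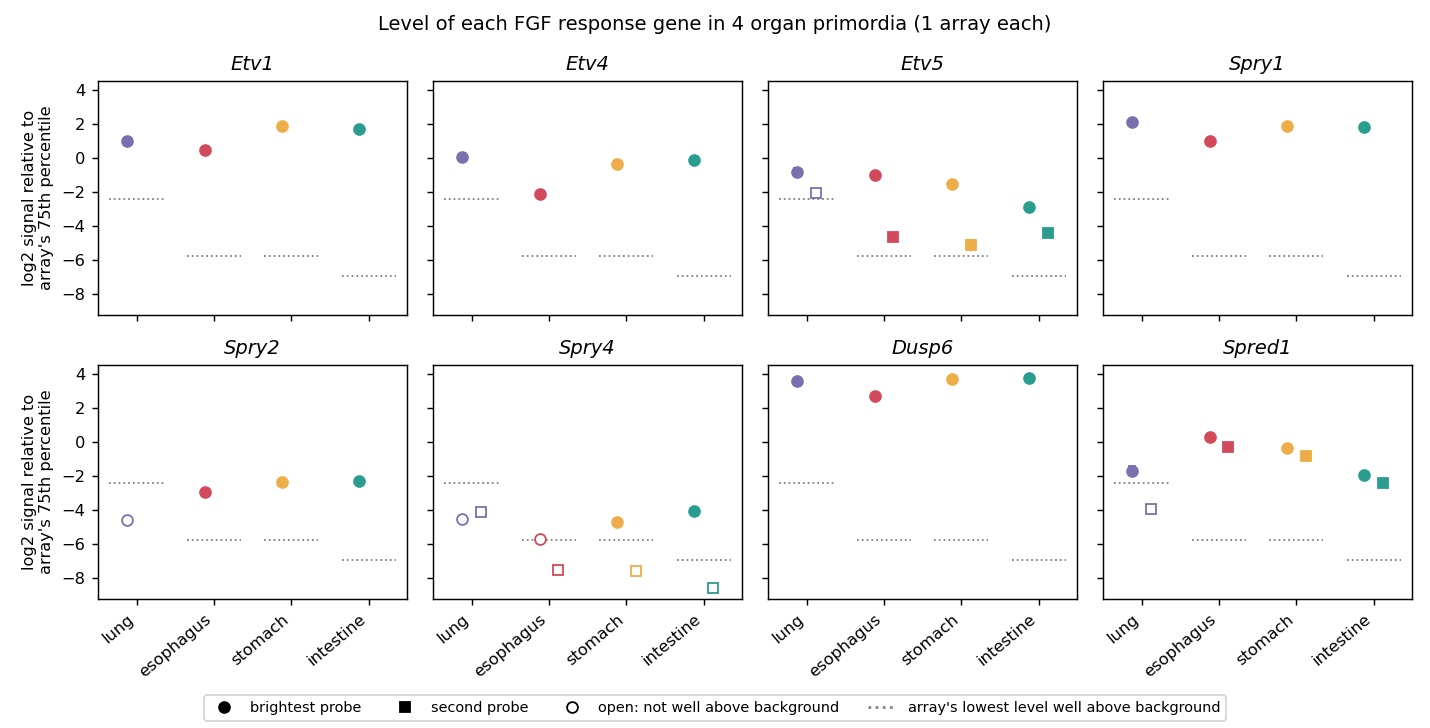
Level of each FGF response gene (log2 signal relative to the array's 75th percentile) in lung, esophagus, stomach and intestine, 1 array each; circles are the brightest probe, squares the second probe, open symbols are not well above background, bars are the spot error (often smaller than the symbol), and dotted lines are the array's lowest level well above background. Etv4 is lowest in esophagus (−2.14), whereas Etv5 and Spred1 are lowest in intestine (−2.87 and −1.92).

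The Sprouty genes encode intracellular inhibitors of receptor tyrosine kinase signalling. Spry1 stood at 2.12 ± 0.15 in lung, 0.97 ± 0.14 in the esophagus, 1.90 ± 0.14 in the stomach and 1.81 ± 0.14 in the intestine. Lung, stomach and intestine were next to each other in steps of 0.21 and 0.10, within 2 spot errors, and esophagus was 1.79-fold below the nearest of them.

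Spry2, whose loss in mice leads to excess enteric nerve cells, was not well above background in lung. It read −2.92 ± 0.15 in the esophagus, −2.33 ± 0.15 in the stomach and −2.30 ± 0.14 in the intestine. Esophagus was thus 1.51-fold below stomach and 1.54-fold below intestine, and those 2 organs were 0.04 apart. The lung value gives only bounds: Spry2 was at least 1.04-fold lower in lung than in stomach and at least 1.07-fold lower than in intestine, and against esophagus no fold could be given.

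The brighter probe of Spry4, a further inhibitor of the family, was not well above background in lung or esophagus and read −4.73 ± 0.21 in stomach and −4.08 ± 0.15 in intestine. In esophagus it was at least 1.97-fold lower than in stomach and at least 3.10-fold lower than in intestine, by its own esophagus reading of −5.71 ± 0.35. Over the alternatives esophagus minus stomach ran from −1.18 to −0.35, and with normexp background correction no value was left against intestine. Stomach was 1.57-fold below intestine, a direction that turned with normexp (stomach minus intestine 0.67 against −0.65). The second Spry4 probe was not well above background on any of the 4 arrays, so no probe pair could be compared.

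Dusp6, a cytoplasmic phosphatase that removes phosphate from ERK, read 3.58 ± 0.14 in lung, 2.72 ± 0.14 in the esophagus, 3.69 ± 0.14 in the stomach and 3.75 ± 0.14 in the intestine. The unscaled signals were 384, 2501, 4123 and 13323 in that order, before any scaling for the brightness of the arrays (75th percentiles of 33.4, 393, 334 and 1023). After scaling, lung, stomach and intestine lay within 1.12-fold of each other (with normexp background correction, lung minus stomach was −1.23 and lung minus intestine −1.47), and esophagus was 1.82-fold below lung, 1.95-fold below stomach and 2.04-fold below intestine.

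Spred1, a membrane protein that brings the RAS inhibitor neurofibromin to RAS, had the opposite order among the gut segments. Its brighter probe read −1.68 ± 0.25 in lung, 0.32 ± 0.14 in the esophagus, −0.34 ± 0.14 in the stomach and −1.92 ± 0.14 in the intestine. Esophagus was highest, 1.58-fold above stomach, 3.99-fold above lung and 4.72-fold above intestine, and lung and intestine differed by 0.24, within the error of 0.29. The second Spred1 probe was not well above background in lung and read −0.32 ± 0.14 in the esophagus, −0.82 ± 0.15 in the stomach and −2.43 ± 0.15 in the intestine. All 5 organ pairs that could be compared between the 2 probes had the same sign, and the esophagus minus intestine difference was 2.24 ± 0.20 with one probe and 2.12 ± 0.21 with the other. Only the pairs of gut segments could have disagreed. For lung against esophagus and stomach the second probe gave bounds, which could only come out lower in lung or be dropped.

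Counted over the 8 genes, the difference between esophagus and the 2 segments below it had 2 directions. Etv1, Etv4, Spry1, Spry2, Spry4 and Dusp6 were lower in esophagus than in stomach and than in intestine, and Etv5 and Spred1 were higher. These directions were the same under each alternative scaling, background correction and probe rule that gave a value. For Spry4, not well above background in esophagus, a bound could only come out lower there or give no value. By its second probe alone, Etv5 was not higher in esophagus than in intestine (−0.24 ± 0.29). The median difference over the 8 genes, bounds included, was −0.95 for esophagus minus stomach and −0.93 for esophagus minus intestine, where the medians over all genes compared were −0.16 and −0.13.

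By a size of at least 2-fold, 2 of 8 genes differed between esophagus and stomach, against 9.9% of 13733 genes. Both, Etv1 and Etv4, were lower in esophagus (all genes: 4.27% lower, 5.63% higher). Spry1 and Dusp6 lay just under the threshold at 1.91-fold and 1.95-fold, and the bound of Spry4 was 1.97-fold. Between esophagus and intestine 6 of 8 genes differed, against 20.6% of 13895 genes. Etv1, Etv4, Spry4 and Dusp6 were lower in esophagus (all genes: 8.71%), and Etv5 and Spred1 were higher (all genes: 11.9%). The Dusp6 difference, just past the threshold, was under 2-fold with the percentile over bright probes (−0.93) and with quantile normalization (−0.91). Between stomach and intestine 2 of 8 genes differed, against 12.4% of 13808 genes, and both, Etv5 and Spred1, were higher in stomach (all genes: 7.52% higher, 4.87% lower).

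**Figure D2:**
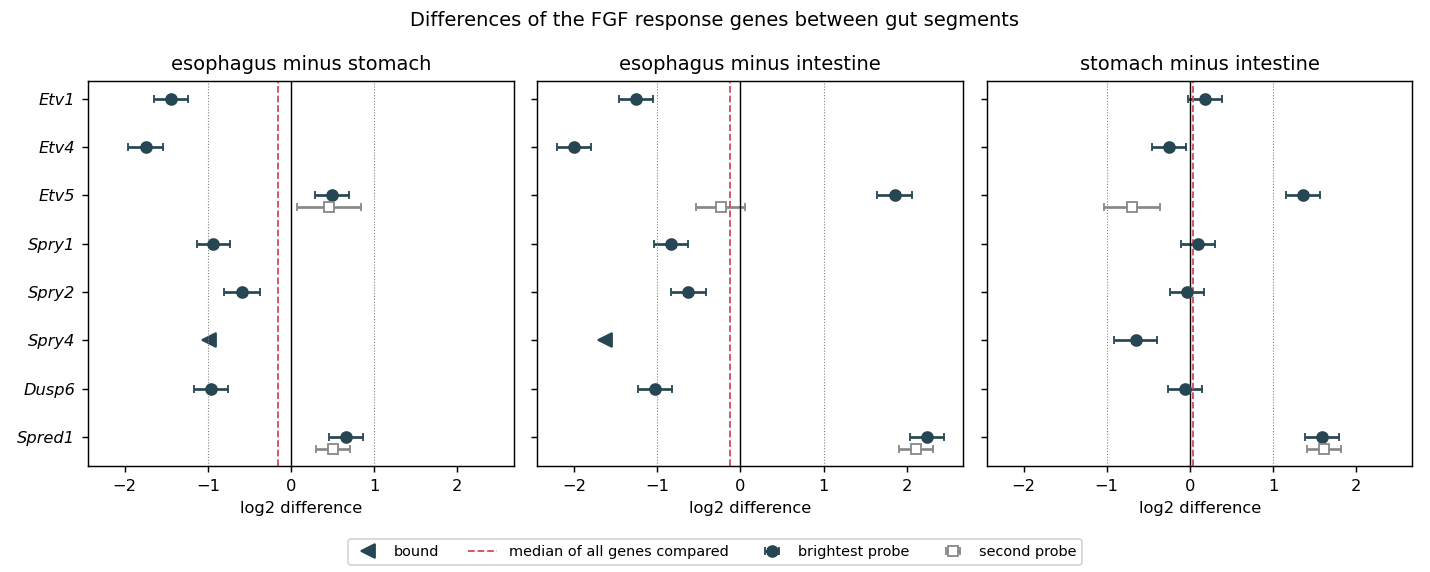
Log2 difference of each FGF response gene for esophagus minus stomach, esophagus minus intestine and stomach minus intestine; circles are the brightest probe and squares the second probe with the spot error of the difference, triangles are bounds, the red dashed line is the median of all genes and dotted lines mark 2-fold. In the esophagus panels 6 genes lie left of 0 and Etv5 and Spred1 right of it, and the second Etv5 probe lies apart from the first in both intestine panels (−0.24 against 1.85, and −0.70 against 1.36).

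Lung could be compared for fewer of the genes. Against esophagus 3 of 6 genes were at least 2-fold apart, and the share over 10513 genes was 25.6%. Etv4 (4.57-fold) and Spry1 (2.21-fold) were higher in lung (all genes: 16.2%) and Spred1 (3.99-fold) was lower (all genes: 9.42%). Against stomach 1 of 7 genes passed, Spred1, which was 2.53-fold lower in lung (all genes: 23.9% apart, 9.87% lower, 14% higher). Against intestine 1 of 7 passed, Etv5, which was 4.18-fold higher in lung by its brighter probe (all genes: 20.6% apart, 12.2% higher, 8.4% lower).

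Some lung directions and calls depended on the scale or background correction. The normexp alternative adds an offset of 50 to each signal. That is above the lung array's 75th percentile signal (33.4) and below those of the other arrays (334 to 1023), so low lung signals are drawn together most. The part of the offset in the normexp values was not tested. Dusp6 was higher in lung than in esophagus as reported (0.86) but lower with normexp background correction (−0.25), as was Etv1 (0.56 against −0.07). Spry1, highest in lung as reported, was lower in lung than in stomach (−0.55) and intestine (−0.64) with normexp. Its excess in lung over esophagus was past 2-fold in 5 of 8 alternatives and was 0.33 with normexp. For Spred1, lung minus intestine was 0.24 as reported, 1.25 with normexp and −0.64 with the mean of both probes. The second Spred1 probe in that mean was not well above background in lung. The higher level of Etv4 in lung than in esophagus kept its direction and stayed above 2-fold in all 8 alternatives (1.65 to 2.78). The lower level of Spred1 in lung than in esophagus kept its direction in all 8 (−2.81, with the mean of both probes, to −0.78). It was under 2-fold in 1 of them, normexp. Its lower level in lung than in stomach was past 2-fold in 6 of 8 alternatives, and was −0.95 with median centring and −0.20 with normexp.

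Of the 6 genes measured on all 4 arrays, Etv1, Etv4, Spry1 and Dusp6 had their lowest level in esophagus. Over 9497 genes measured on all 4 arrays that share was 42.8%, so an esophagus minimum was common on this scale. Among the 3 gut segments alone it was 5 of 7 genes, Spry2 being the fifth, against 48.6% of 12858 genes. The shares over all genes moved with the scale, to 70.1% and 69.8% with median centring and to 28.6% and 40.5% with the percentile over bright probes. The counts of these genes stayed at 4 of 6 and 5 of 7 in both. Neither count was set against chance.

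Which of 2 organs holds more genes past 2-fold depended on the scaling or background correction for all 6 pairs. For esophagus against intestine, 57.8% of the genes past 2-fold were higher in esophagus, and this share ran from 20.2% with median centring to 72.3% with normexp over the 8 alternatives. For esophagus against stomach it was 56.9% (36.9% to 67.4%), and for stomach against intestine 60.7% higher in stomach (31.7% to 86.7%). For lung it was 63.3% against esophagus (36.7% to 90.8%), 58.7% against stomach (29.5% to 84.3%) and 59.2% against intestine (30.4% to 78.3%).

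A ratio of 2 genes on the same array needs no scaling between arrays, so its change between organs shows unequal change of the pair, but it still depends on background correction and on the probes used. The ratio of Etv4 to Etv5 (log2, brighter probes) was −1.12 in esophagus, 0.86 in lung, 1.12 in stomach and 2.73 in intestine. It was lowest in esophagus and was 14.5-fold higher in intestine (log2 error 0.29) and 3.95-fold higher in lung. With normexp these changes were 8.05-fold and 1.94-fold. The intestine end of this ratio carries the disagreement between the Etv5 probes, and with the mean of both probes the change was 7.002-fold to intestine. To lung it was 1.73-fold with that mean, which takes in a second-probe value not well above background in lung.

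The ratio of Spry1 to Spred1 was 3.79 in lung, 0.65 in the esophagus, 2.24 in the stomach and 3.72 in the intestine. Esophagus was low and lung and intestine were both high, a change of 8.43-fold from esophagus to intestine (log2 error 0.29) and of 8.83-fold from esophagus to lung (3.14 ± 0.36). The first of these was 8.02-fold with normexp, whereas the change to lung was 2.16-fold with normexp and 15.6-fold with the mean of all probes. That mean takes in the second Spred1 probe, which was not well above background in lung. For Dusp6 and Spred1 the change from esophagus to intestine was 9.62-fold, and for Spry2 and Spred1 it was 7.28-fold. With normexp these 2 changes were 9.55-fold and 4.375-fold.

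Dusp6 and Spry1 kept nearly the same ratio. It was 1.47 in lung, 1.75 in the esophagus, 1.78 in the stomach and 1.94 in the intestine, and its widest change, 1.39-fold between lung and intestine, was within 2 errors (log2 error 0.29), though 1.78-fold with normexp. Etv5 and Spred1, the 2 genes that were higher in esophagus, had a ratio of −1.34 in the esophagus, −1.18 in the stomach and −0.95 in the intestine, where the changes of at most 1.31-fold were also within 2 errors, but 0.87 in lung, 4.61-fold above esophagus (2.78-fold with normexp, 18.6-fold with the mean of all probes). With the mean of all probes its change from esophagus to intestine was 2.59-fold. In lung that mean takes in the second probe of each gene, neither of them well above background there.

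**Figure D3:**
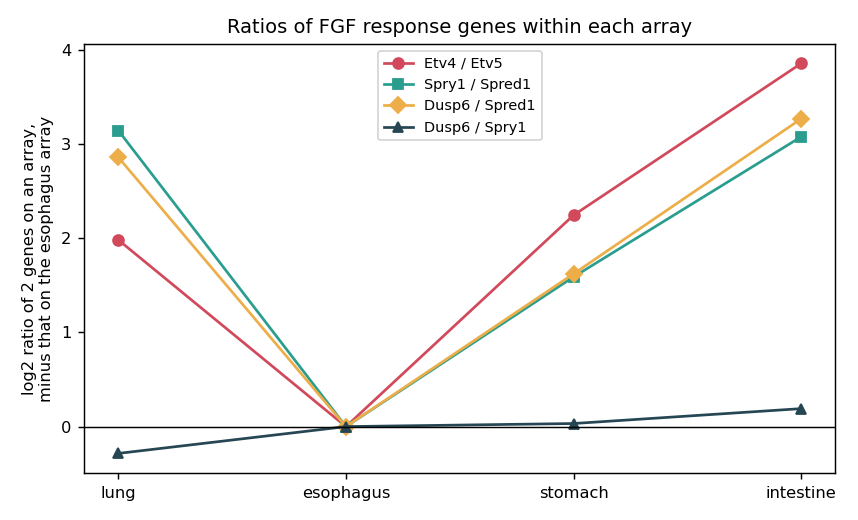
Log2 ratio of 2 FGF response genes on each array minus the same ratio on the esophagus array, for lung, esophagus, stomach and intestine (1 array each, brightest probes; lines only join the points of a pair). The ratios of Etv4 to Etv5, Spry1 to Spred1 and Dusp6 to Spred1 are higher in intestine than in esophagus by 14.5-fold, 8.43-fold and 9.62-fold, whereas Dusp6 to Spry1 stays within 1.22-fold of its esophagus value.

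Genes with the most similar order were sought among 3770 other named genes that were above background on all 4 arrays and spanned at least 2-fold, by the Euclidean distance over the 4 organ values centred on their mean. This is a description over 4 samples. Nearest to Spry1 were Gstp1 (0.09), the FGF ligand Fgf9 (0.12) and Rab1b (0.16), and nearest to Dusp6 were Tyrobp (0.09), Fam149a (0.10) and Mtfp1 (0.15). Spry1 was at place 37 from Dusp6 (0.34), and Dusp6 at place 67 from Spry1.

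Nearest to Etv4 were Dnajc22 (0.17), Clic6 (0.39) and Lin28b (0.42), and nearest to Etv1 were Kif12 (0.15), Fez1 (0.18) and Pak4 (0.22). Among the genes closest to Spred1 were Mob1b (0.09) and Ppme1 (0.14), and those closest to the brighter Etv5 probe were Pdpk1 (0.20), Slc16a12 (0.26) and Grk4 (0.29). Il17rd, an FGF receptor antagonist also called Sef and singled out after its values were seen, was at place 15 from Spry1 (0.23), 20 from Dusp6 (0.28) and 30 from Etv4 (0.78). It was at place 164 from Etv1, 2569 from Spred1 and 2610 from Etv5.

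The other genes of the pathway were read from lists written for this system, on the reported scale and by the brightest probe only. Some of them, such as Il17rd with 3 probes, have further probes that were not compared. Of 22 FGF genes listed as ligands, 21 were on the array and 15 were above background on at least 1 array. Fgf11, Fgf12, Fgf13 and Fgf14 on that list are intracellular and not secreted ligands. Fgf10, the ligand of lung branching, stood at 0.48 in lung, −1.33 in the esophagus, 0.26 in the stomach and −1.07 in the intestine. It shared with Spry1 the higher levels in lung and stomach, but in intestine it stayed near its esophagus level (1.20-fold apart), where Spry1 and Dusp6 were high. Fgf9, an epithelial and mesothelial ligand, read −0.37, −1.68, −0.65 and −0.75 in the same organ order, with its lowest level in esophagus.

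Fgf8 had another order, with levels of −2.15 in lung, −3.16 in the esophagus, −3.65 in the stomach and −4.46 in the intestine, and Fgf5 read 0.00, −1.44, −0.48 and −1.25. Of the FGF genes on that list, 3 of 13 compared were at least 2-fold lower in esophagus than in stomach and 1 was higher (all genes: 4.27% and 5.63%). The intracellular Fgf13 was among the 3. Against intestine none of 11 was lower and 4 were higher (all genes: 8.71% and 11.9%), with a median difference of 0.48.

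Among 7 receptors and coreceptors, Fgfr2, the receptor for FGF10, read 0.07 in lung, 0.77 in the esophagus, −0.21 in the stomach and 0.64 in the intestine. It was 1.96-fold higher in esophagus than in stomach, the reverse of Etv4, Spry1 and Dusp6. Fgfr4 read −0.24, −1.48, −0.91 and 0.10 and Fgfrl1, a receptor without a kinase domain, 2.13, 1.25, 1.29 and 1.42, both lowest in esophagus. Fgfr1 was −0.64 in lung and between −0.05 and 0.10 elsewhere. None of the 6 receptors compared was 2-fold apart between esophagus and stomach, where the share over all genes was 9.9%. Against intestine 2 of 6 were lower in esophagus (all genes: 8.71%), Fgfr4 (2.98-fold) and, named after its value was seen, the coreceptor gene Klb (11.4-fold).

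Of the RAS-ERK cascade, 19 genes were compared. None was 2-fold apart between esophagus and stomach (all genes: 9.9%), and against intestine 3 were higher and 3 lower in esophagus (all genes: 11.9% and 8.71%). Map2k1, a kinase of the cascade, read 1.69 in lung, 0.08 in the esophagus, 0.47 in the stomach and 1.90 in the intestine. It was low in esophagus and stomach and high in lung and intestine, unlike Spry1 and Dusp6, which were high in stomach too. Nras read 3.40, 1.71, 2.07 and 2.19 in the same organ order and was highest in lung.

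Among 14 other feedback inhibitors compared, 3 were at least 2-fold lower in esophagus than in stomach and none was higher (all genes: 4.27% and 5.63%), and against intestine 2 were lower and 1 higher (all genes: 8.71% and 11.9%). Il17rd read 2.20 in lung, 0.99 in the esophagus, 2.19 in the stomach and 2.07 in the intestine, 2.30-fold below stomach and 2.11-fold below intestine in esophagus. The phosphatase gene Dusp9 read 1.14, −0.07, 1.20 and 2.41, lowest in esophagus and highest in intestine. Spred2, the paralogue of Spred1, read −0.76, −1.65, −0.88 and −2.16, so it did not share the high esophagus level of Spred1. Dusp2 (2.32, 0.62, 0.19 and 0.57) and Lrig1 (2.72, 4.21, 3.89 and 3.64) were lowest in stomach and in lung, respectively.

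Immediate early and growth genes are further targets of ERK. Of 9 compared between lung and esophagus, 5 were at least 2-fold higher in lung and 1 was lower (all genes: 16.2% and 9.42%), and of 14 compared between esophagus and stomach 2 were lower in esophagus and none was higher (all genes: 4.27% and 5.63%). Junb read 4.73 in lung, 1.67 in the esophagus, 1.55 in the stomach and 1.12 in the intestine. Phlda1 read 4.85, 3.09, 3.55 and 2.11, Myc 2.69, 0.72, 0.997 and 1.58, and Jun 0.61, 1.43, 2.54 and 1.76. None of these 4 had the order of Dusp6 or Spry1, with lung, stomach and intestine close together above esophagus.

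Of the 12 other ETS factors compared between esophagus and stomach, 2 were higher and 2 lower in esophagus (all genes: 5.63% and 4.27%), and against intestine 1 was higher and 1 lower (all genes: 11.9% and 8.71%). Ets2 read 4.02 in lung and between 2.15 and 2.53 in the other organs, Elf1 −0.93 and between −2.27 and −1.88, and both were highest in lung. Gabpa read 1.27, 0.37, 0.87 and 1.05 and was lowest in esophagus, and Fli1, an endothelial and blood cell ETS factor, read 1.16, 1.27, 0.26 and 0.65 and was lowest in stomach.

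**Figure D4:**
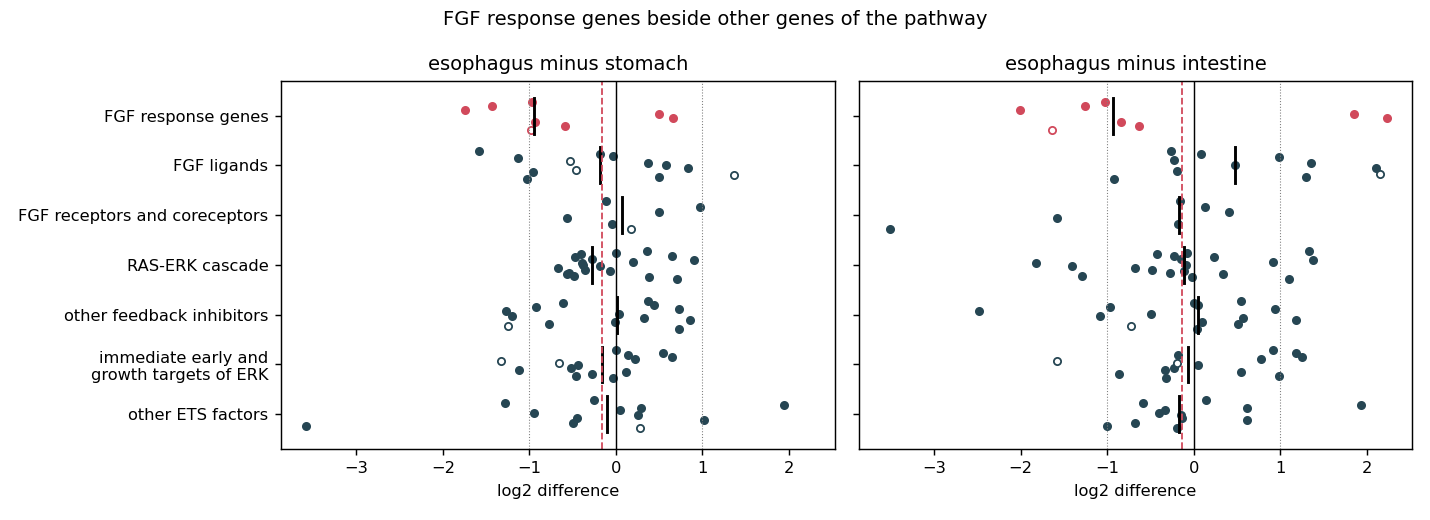
Log2 difference for esophagus minus stomach and esophagus minus intestine of the 8 FGF response genes (red) and of the other pathway lists; each point is a gene, open points are bounds, black bars are list medians, the red dashed line is the median of all genes and dotted lines mark 2-fold. The FGF response genes have medians of −0.95 and −0.93, while the medians of the other lists lie between −0.27 and 0.07 against stomach and between −0.17 and 0.48 against intestine.

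Markers of broad cell classes did not follow one order with these genes. The 4 epithelial markers summed to 40.8 in lung, 30.7 in the esophagus, 93.8 in the stomach and 46.8 in the intestine. That sum is mostly Krt8 and Krt18, and Cdh1 was higher in esophagus (0.05) than in stomach (−0.10) or intestine (−0.63), while Epcam was lowest in esophagus (−0.76). The 4 mesenchymal markers summed to 117, 113, 70.8 and 76.9, and the 4 endothelial markers stayed between 5.35 and 7.98. The 4 liver markers found on the array, high in intestine, summed to 25.1, 9.52, 3.16 and 58.2. The part of cell composition in the levels of the 8 genes was not tested.

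**Figure D5:**
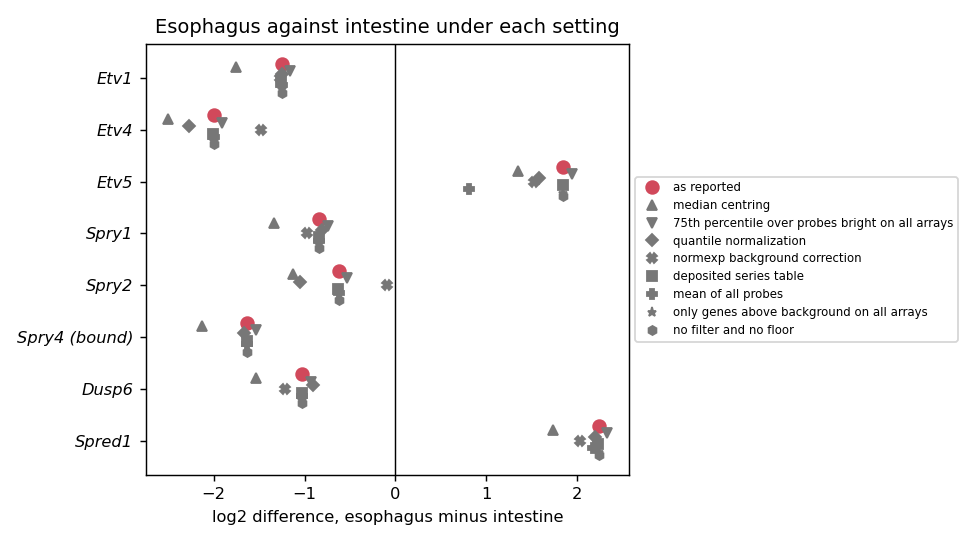
Log2 difference between esophagus and intestine of each FGF response gene as reported (red) and under each alternative that gave a value (grey); Spry4 values are bounds except where no floor was used. All points of Etv5 and Spred1 lie right of 0 and all points of the other 6 genes left of it, with Spry2 closest to 0 at −0.09 under normexp and Etv5 reaching 0.81 when its probes are averaged. A Spry4 bound could only lie left of 0 or give no value.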

How the data were processed

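Per the labels' protocols, total RNA was labelled with Cy3 by a low-input kit and hybridised in 1 colour. Per the file headers, Agilent Feature Extraction 10.5.1.1 read the scans (protocol GE1_105_Dec08, design 014868, build mm8), and the deposited signals are intensity values, background-subtracted and detrended but not scaled between arrays. A deposited table of the series gives log2 values, which matched the scale used here (r 0.99996 to 0.99998; array medians −3.56, −2.97, −3.17 and −3.47 for lung, esophagus, stomach and intestine). Nothing else states its scale, centring or direction, and it served as an alternative.

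Outlier spots were left out, copies of a probe averaged and 69 of 41174 probes dropped. No spot was saturated. Accessions of 24338 probes (59.2%) matched a RefSeq symbol (GRCm38.p6). A gene took its brightest probe by mean level. An array not well above background entered at its own level or at the array's lowest level well above background, whichever was higher, which makes a fold a bound. Pairs with both arrays below background, or with a bound under 1, got no fold. Genes were compared where at least 1 array of the pair was well above background. Counts use a size of 2-fold and no test. All probes of the 8 genes were named, with up to 4 genes per pathway list by range and the 3 nearest in pattern. Il17rd and Klb were named outside that rule, and some genes that fall under it are not reported here. The genes, lists and rules were chosen with earlier results of these data known. The 8 alternatives were median centring, a 75th percentile over probes bright on all arrays, quantile normalization, normexp (offset 50, on the median signals), the deposited log2 table, the mean of all probes, only genes above background on all arrays, and no filter and no floor. Python 3.11.15 (numpy 2.4.6, pandas 2.3.3) and R 4.3.3 with limma 3.58.1 were used, and the counting was tested on simulated data.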

Additional observations from a re-analysis of the deposited data

How the results depend on the processing

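Counts of the 8 genes at least 2-fold apart moved by more than 1.5 times in 11 of 48 alternative counts, and no called difference changed sign. With median centring, 5 genes (2 as reported) passed between esophagus and stomach (all genes: 11.2%) and 5 (3) between lung and esophagus (49.5%, against 25.6% as reported); it moved the median of all genes for esophagus minus intestine from −0.13 to −0.62. With normexp background correction, 1 gene passed between lung and esophagus (all genes: 22.8%), 4 (1) between lung and intestine (32.7%) and 3 (1) between lung and stomach (27.8%), and 2 genes (4) had their lowest level in esophagus of 4 organs, where the share over all genes was 22.7%. With no filter and no floor, 5 genes passed between lung and esophagus, 2 between lung and intestine and 2 between lung and stomach, where the shares over all genes were 44.3%, 40.5% and 42.7%. The mean of all probes gave 2 between lung and stomach (21.3%) and 1 (2) between stomach and intestine (11.8%), and the percentile over bright probes gave 2 between lung and stomach (22.7%). The 2 counts of genes lowest in esophagus, and the ratios under each alternative, were chosen after seeing the data. Of 338 single differences, 259 moved by less than the spot error and 79 by more. The cause was not tested. The dim lung array limits what could be measured for Spry2, the brighter Spry4 probe and the second probes of Etv5 and Spred1. The brighter Spry4 probe was also not well above background in esophagus, and the second Spry4 probe was not on any array. No replicate could be left out, and no paired analysis was possible because each organ had 1 array.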
